A study of Drosophila melanogaster with 12 samples.

Results

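The genes described here are ase, dpn, wor, insc and mira, markers of neuroblasts, the neural stem cells of the larval brain and ventral nerve cord of Drosophila melanogaster. They were chosen by name, and each has 1 probe set that the platform annotation maps to that gene alone, so all 5 were found among 11983 named genes and 18952 probe sets. Values of ase, mira and insc in the sens comparison, and of mira in all groups, were known when the set was named. The differences of the 5 genes that involve sens arrays are therefore given as a description with no test.

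Expression was measured on 12 arrays of eye imaginal discs from wandering third-instar larvae, from which the antennae had been taken off according to the labels. In the Runt experiment 3 samples carried w with ro-Gal4 and UAS-Run, and 3 carried w with ro-Gal4 and UAS-Run[G163R], which encodes a Runt protein with 1 changed amino acid. Both groups thus carry a Runt transgene under a driver named for the gene ro, and no array of that experiment lacks one. In the sens experiment 3 samples were w with sensDF2RES and sensE1 both homozygous (sens mutant), and 3 were w with each over a wild-type chromosome (sens control). The sens controls are therefore heterozygous for both elements and carry no Gal4 driver by their label. Whether replicates came from separate crosses is not in the labels, and the p-values below reflect the spread among these samples only, some or all of which may be technical.

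A neuroblast divides unequally, renewing itself and giving off a smaller daughter that will form neurons or glia. The transcription factors Asense, Deadpan and Worniu mark the stem cell. Inscuteable sits at its apical side, where it joins the Par proteins to the machinery that orients the spindle, and Miranda carries Prospero, Brat and Staufen to the opposite side and into the daughter. The eye disc proper forms no neuroblasts, but the optic stalk joins it to the brain, so the question put to these arrays was whether the sens controls or the sens mutants stand apart from the Runt experiment, as they might where brain tissue stayed on the discs. Asense and Inscuteable are also used in sensory organ lineages, so the 5 genes are not exclusive to the brain.

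Values were deposited on a log2 scale, and array medians were 2.59 to 2.67, set by a dense floor of probe sets below a log2 value of about 3, where differences are compressed. All 5 genes lay above the 40th percentile on all 12 arrays, so the filter on low values removed none. Correlations between arrays were 0.993 to 0.998 within a group and 0.976 to 0.986 between the experiments. Of 11470 probe sets tested, 16.9% were called (limma, Benjamini-Hochberg adjusted p under 0.05) between sens mutants and sens controls, 43.2% between sens controls and the Runt experiment and 34.5% between sens mutants and the Runt experiment. Experiment, genetic background and any batch of dissection or labelling cannot be told apart in those comparisons. In bulk tissue, fewer cells of a type and less RNA per cell cannot be told apart either.

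The 5 genes did not share a pattern. The sens controls stood apart for mira, insc and, on some arrays, wor, the sens mutants stood apart for ase, and dpn was lower in both sens groups than in Runt G163R. All 5 were lower in sens mutants than in sens controls with no overlap of arrays, a state found for 14.4% of all probe sets tested. Their median difference was -1.27 (log2), against 0.03 over all probe sets tested. Since this contrast was used to choose genes of the set, nothing is read from that count.

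ase, on the X, encodes a basic helix-loop-helix factor of the achaete-scute complex. It stood at 5.32, 4.89 and 4.90 in Runt discs and at 5.14, 5.06 and 4.83 in Runt G163R discs. In sens controls it stood at 5.26, 5.26 and 5.10, within the range of the Runt experiment. The sens mutants, at 3.91, 4.01 and 3.91, lay below every other array. Their mean was 3.94 ± 0.0579 (SD, n = 3) against 5.21 ± 0.0912 (SD, n = 3) in sens controls, a difference of -1.27 (log2, SE 0.144), or a ratio of 2.41. Against the Runt experiment the mutants differed by -1.08 (log2, SE 0.124) and the controls by 0.19 (log2, SE 0.124), or by 0.47 after a second quantile normalization.

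dpn, on 2R, encodes a Hes-family repressor that keeps neuroblasts in the self-renewing state. In Runt discs its values were 9.37, 9.47 and 9.04, and in Runt G163R discs 9.74, 9.62 and 9.47. In sens controls they were 8.90, 9.13 and 9.18, and in sens mutants 8.66, 8.63 and 8.89. The mutant arrays were the lowest 3 of the 12, though 8.89 and 8.90 all but touch across the sens groups. The mutants differed from the controls by -0.34 (log2, SE 0.128) and from the Runt experiment by -0.72 (log2, SE 0.111). Controls overlapped the Runt arrays through Runt replicate 3, with a difference of -0.38 (log2, SE 0.111) from the Runt experiment. For dpn, then, the controls lay on the opposite side of the Runt experiment from where they lay for mira and insc. dpn was bright on every array, at 8.63 to 9.74, while wor lay near the floor on most. Which cells gave the dpn signal was not tested, so its level is not read as that of brain neuroblasts alone.

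wor, on 2L, encodes a zinc-finger factor of the Snail family. It lay near the floor in 9 arrays, at 3.04, 2.65 and 3.23 in Runt, 2.71, 2.75 and 2.53 in Runt G163R, and 2.72, 2.67 and 2.73 in sens mutants. Sens controls stood at 4.59, 5.10 and 3.05. Controls 1 and 2 were the only arrays clearly above the floor, while control 3 lay inside the range of the Runt group. The control mean of 4.25 ± 1.07 (SD, n = 3) exceeded the mutant mean by 1.54 and the Runt experiment by 1.43 (log2, SE 0.41 and 0.355). Without control replicate 3 these differences were 2.14 and 2.03 (log2), and without control replicate 2 they were 1.12 and 1.00 (log2).

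insc, on 2R, encodes the apical adaptor Inscuteable. It stood at 6.05, 6.05 and 6.33 in Runt and at 6.01, 6.43 and 6.22 in Runt G163R. The sens mutants, at 6.92, 6.74 and 7.06, lay above all 6 of these arrays, and the sens controls, at 8.07, 7.97 and 7.85, lay above the mutants. Relative to the Runt experiment the difference was 0.72 (log2, SE 0.126) for mutants and 1.78 (log2, SE 0.126) for controls, ratios of 1.65 and 3.44. Mutants lay below controls by -1.06 (log2, SE 0.146). insc was the only gene of the 5 with both sens groups above every Runt-experiment array.

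mira, on 3R, encodes the cargo carrier Miranda. It stood at 6.68, 6.67 and 6.78 in Runt, at 6.38, 6.70 and 6.22 in Runt G163R and at 6.42, 6.58 and 6.22 in sens mutants. These 9 arrays spanned 6.22 to 6.78 and the mutants lay within them. Sens controls, at 7.54, 7.89 and 7.71, lay above all 9. The control mean was 7.71 ± 0.174 (SD, n = 3), higher than the Runt experiment by 1.14 (log2, SE 0.134), while the mutants differed from the Runt experiment by -0.17 (log2, SE 0.134). That small difference was -0.10 without Runt G163R replicate 2, -0.25 without mutant replicate 2 and -0.07 without mutant replicate 3.

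**Figure D1:**
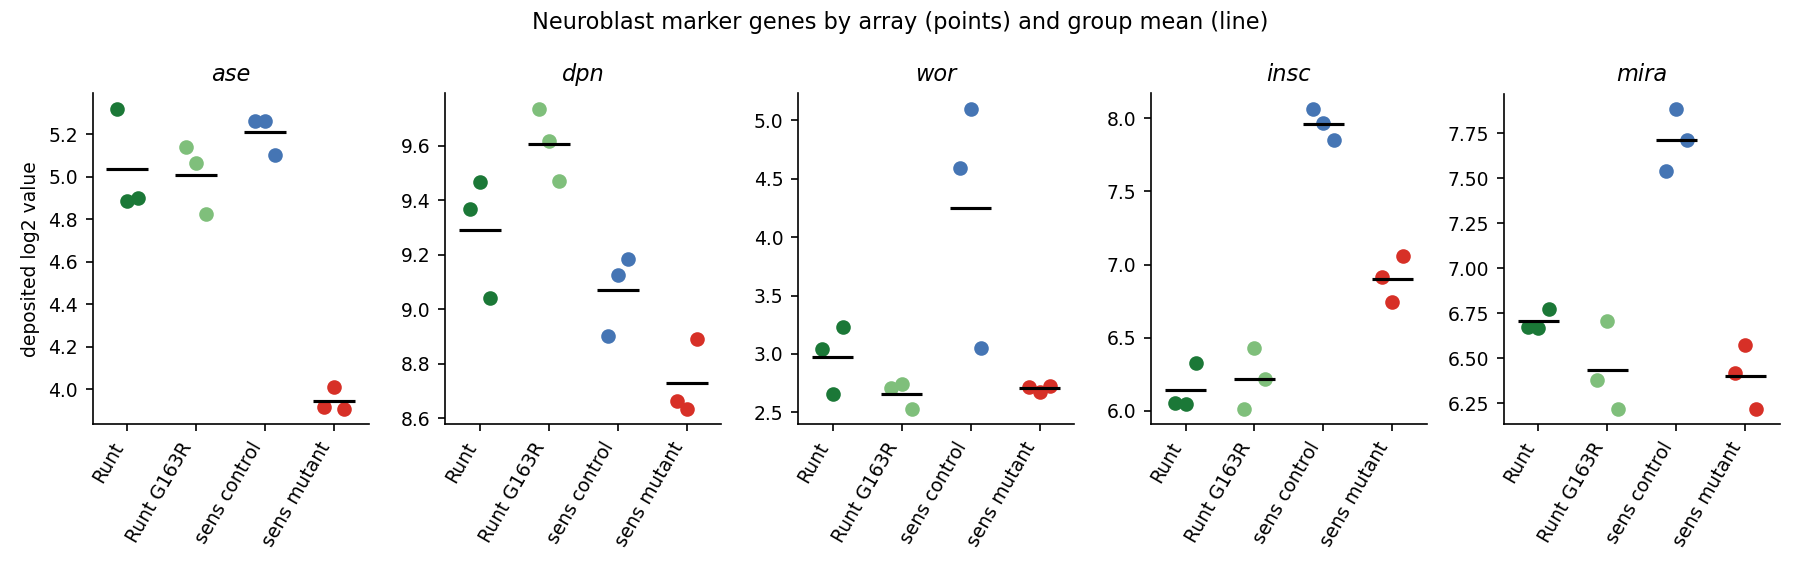
Deposited log2 value (vertical axis, a separate range for each gene) of the 5 genes on each of 12 arrays, 3 points per group with the group mean as a line. Controls lie above all other arrays for insc and mira, mutants lie below all others for ase, and wor is raised in 2 of 3 controls.

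The order of the group means differed among the genes. For ase it ran from sens control through Runt and Runt G163R to sens mutant, and the arrays separated only at the step of 1.07 (log2) above the mutants. For mira the same order held, but only the step of 1.01 (log2) below the controls separated arrays, and Runt, Runt G163R and sens mutant overlapped. For insc the order was sens control, sens mutant, Runt G163R and Runt, with separation at the steps of 1.06 and 0.69 (log2) and none between the Runt groups. For dpn it was Runt G163R, Runt, sens control and sens mutant, with Runt and sens control overlapping. For wor no step between neighbours separated the arrays.

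Counted over the 5 genes, sens controls lay above all 6 arrays of the Runt experiment without overlap for 2, insc and mira, and below for none, where 15.1% of all probe sets lay above and 24.4% below. Sens mutants lay below all 6 for 2, ase and dpn, and above for 1, insc, where 19.9% of all probe sets lay below and 17.3% above. The median difference of the 5 genes from the Runt experiment was 1.14 (log2) in controls and -0.17 (log2) in mutants, against -0.01 over all probe sets in both comparisons. The comparisons share the Runt experiment's arrays, so their values stand side by side and do not count as separate evidence.

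**Figure D2:**
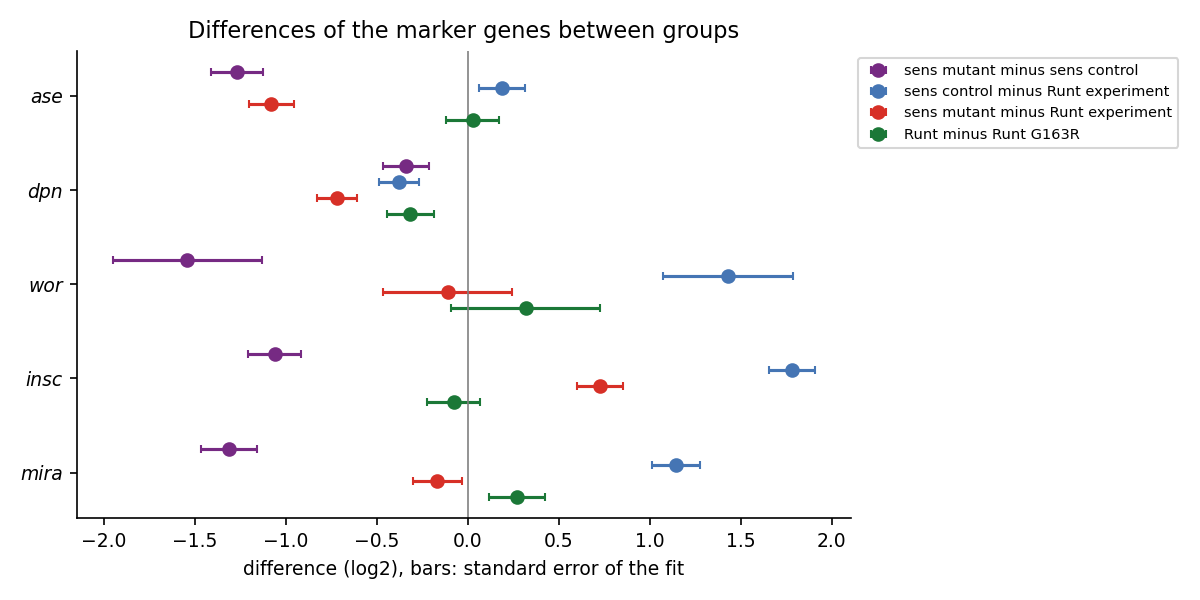
Difference (log2, horizontal axis) of each gene in 4 comparisons, with bars for the standard error of the fit to all 12 arrays. The sens mutant minus sens control points lie below 0 for all 5 genes, while the sens control minus Runt experiment points run from -0.38 for dpn to 1.78 for insc.

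The comparison of Runt with Runt G163R was not used to choose the genes and was tested. The values of mira in these groups were known beforehand, so its p-value does not count as an independent test. None of the 5 was called (0.0436% of all probe sets were), and 1, dpn, had an unadjusted p under 0.05, as did 6.36% of all probe sets. dpn was lower in Runt discs by 0.31 (log2, difference -0.31, SE 0.128, limma adjusted p = 0.762), with no overlap of the 2 groups, as for 4.74% of all probe sets in that direction. Runt replicate 3, the array of its group that lay farthest from the others for dpn, carried part of this, and without it the difference was -0.19 (adjusted p = 1.00). mira differed by 0.27 (SE 0.155, adjusted p = 0.901), wor by 0.32 (SE 0.41), insc by -0.08 (SE 0.146) and ase by 0.03 (SE 0.144), the last 3 with an adjusted p = 1.00. The mira difference was 0.16 without Runt G163R replicate 3 and 0.41 without Runt G163R replicate 2, and that of wor was 0.19 without Runt replicate 3 and 0.48 without Runt replicate 2. Array weights gave 0.07 for mira, 0.09 for wor, -0.21 for dpn and -0.29 for insc (adjusted p values of 0.917, 1.00, 0.19 and 0.153). The adjusted p does not show that the genes were equal in the 2 groups.

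Other genes of neuroblast biology were taken from 2 lists, 20 genes of asymmetric division and 24 transcription factors and temporal regulators, of which 38 were on the array under their name and 35 lay above the filter. Between sens mutants and sens controls 4 of the 35 rose and 4 fell, where 11.6% of all probe sets rose and 5.3% fell. Their median difference was -0.09 (log2), against 0.03 over all probe sets tested. The number that fell was 2 on leaving out any 1 mutant array or control replicate 2 or 3, and the number that rose was 2 without mutant replicate 1 or control replicate 1.

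In the asymmetric division list 1 of 16 fell in mutants and 2 rose, on the brightest probe set of each gene. scrib was not called on it. Among its other probe sets were differences of -2.16, 1.36 and 1.76 (log2, limma adjusted p = 0.000285, 0.000218 and 0.00017), so scrib has no settled direction. The gene that fell was pros, whose homeodomain protein is a cargo of Miranda and which is also made in R7 photoreceptors. Its control values were 7.98, 8.33 and 7.98 and its mutant values 6.68, 6.63 and 7.16, a difference of -1.27 (log2, SE 0.216, limma adjusted p = 0.00372). The Runt experiment spanned 7.06 to 7.85, between the sens groups but touching the mutants. Neither of the other cargo genes was called, stau differing by -0.09 and brat by -0.18 (log2). par-6, of the apical Par complex, rose by 0.23 (SE 0.0418, adjusted p = 0.0058) and pon, the partner of Numb, by 0.32 (SE 0.0776, adjusted p = 0.0208). The call of pon was lost on leaving out mutant replicate 1 or 3 or control replicate 1 or 2, with adjusted p values of 0.0764, 0.0734, 0.0534 and 0.0625. Control arrays were the lowest for pon, at 8.86 to 9.15, while every other array read 9.21 or more.

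In the list of transcription factors and temporal regulators 3 of 19 fell and 2 rose in mutants. grh was not called on its brightest probe set, while its other one rose by 1.28 (limma adjusted p = 0.00415). btd, which specifies the type of neuroblast that makes intermediate progenitors and is also a head and appendage gene, stood at 5.17, 6.44 and 5.96 in controls against 3.91, 3.83 and 4.23 in mutants, a fall of 1.87 (difference -1.87, SE 0.264, adjusted p = 0.00152). The Runt experiment lay at 3.74 to 3.99, so for btd, as for mira, the controls were the group apart. chinmo, a temporal regulator of young neuroblasts, fell by 1.24 (SE 0.321, adjusted p = 0.0263), from 5.25, 6.44 and 6.41 to 4.93, 4.63 and 4.82. That call was lost in 8 of 21 alternatives, including the omission of any 1 mutant or of control replicate 2 or 3 (adjusted p values of 0.0589, 0.0765, 0.0671, 0.0849 and 0.0702). A dimmer chinmo probe set differed in the same direction, by -1.96 (adjusted p = 0.00228). slp2, a forkhead factor, rose by 0.92 (SE 0.146, adjusted p = 0.00272). For slp2 the controls were again the group apart, but on the low side. Control arrays read 7.18 to 7.77, mutant arrays 8.21 to 8.49 and Runt-experiment arrays 8.67 to 9.11. Controls thus differed from the Runt experiment by -1.39 (log2, limma adjusted p = 1.9e-05). The other 2 calls, named after their values were seen, were nub, which fell by 0.85 within or near the floor (difference -0.85, adjusted p = 0.0334), and Syp, which rose by 0.34 (adjusted p = 0.0389). These were lost in 10 of 20 and 12 of 21 alternatives.

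Against the Runt experiment the sens controls were higher for 11 of the 35 genes and lower for 7, where 16.5% of all probe sets were higher and 26.7% lower. In the transcription factor list 9 of 19 were higher and 1 lower, with a median of 0.72 (log2), while in the asymmetric division list 2 of 16 were higher and 6 lower, with a median of -0.06 (log2). The lists were not tested against each other. These counts rest on the brightest probe set of each gene: br was not called on it, while its other probe sets differed by 1.37, -0.45, -2.58 and -4.76 (log2), all but the second of them called. Sens mutants gave 10 higher and 8 lower of the 35, where 17.5% and 16.9% of all probe sets were called, with 8 higher and 2 lower in the transcription factor list. Without mutant replicate 2 the number lower in mutants was 4 of the 35.

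Genes of this comparison were named after their values were seen. Imp, an RNA-binding temporal regulator, was at 8.81 and 8.44 (log2 means) in the Runt groups, at 10.65 in sens controls and at 10.39 in sens mutants, so the controls were higher by 2.03 (SE 0.245, adjusted p = 0.000107). esg, of the Snail family like wor, was higher in controls by 1.33 (SE 0.185, adjusted p = 0.000256) and in mutants by 0.79 (adjusted p = 0.00745). In both sens groups stau was also higher, by 1.05 (SE 0.142, adjusted p = 0.000213) in controls and by 0.96 (adjusted p = 0.000513) in mutants. Lower genes included mud, a spindle orientation factor, with a difference of -2.15 in controls (SE 0.192, adjusted p = 1.71e-05) and of -1.95 in mutants (adjusted p = 3.79e-05). baz, the Par protein that Inscuteable binds, differed by -1.78 in controls (SE 0.257, adjusted p = 0.00033) and -1.41 in mutants (adjusted p = 0.00186). With the mean over its probe sets, 1 of which lies in the floor at a mean of 2.40, mud differed by -1.08 in controls and by -0.99 in mutants. grh was higher in controls by 0.79 (adjusted p = 0.000313) on its brightest probe set, and its other probe set was lower by 1.96 (difference -1.96, adjusted p = 2.82e-05), so that gene has no settled direction.

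The genes cas, hb, pdm2, erm and l(1)sc of the transcription factor list, 5 of its 22 with a probe set, lay below a log2 value of 3 on all 12 arrays. Of these, cas and erm still passed the filter and are among the 35. None of the 35 genes was called between Runt and Runt G163R in the main fit, where 0.0436% of all probe sets were. With array weights in the same fit 2 were called, sna and grh, both higher in Runt. That setting called 466 of all 11470 probe sets, so nothing is read from these 2.

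**Figure D3:**
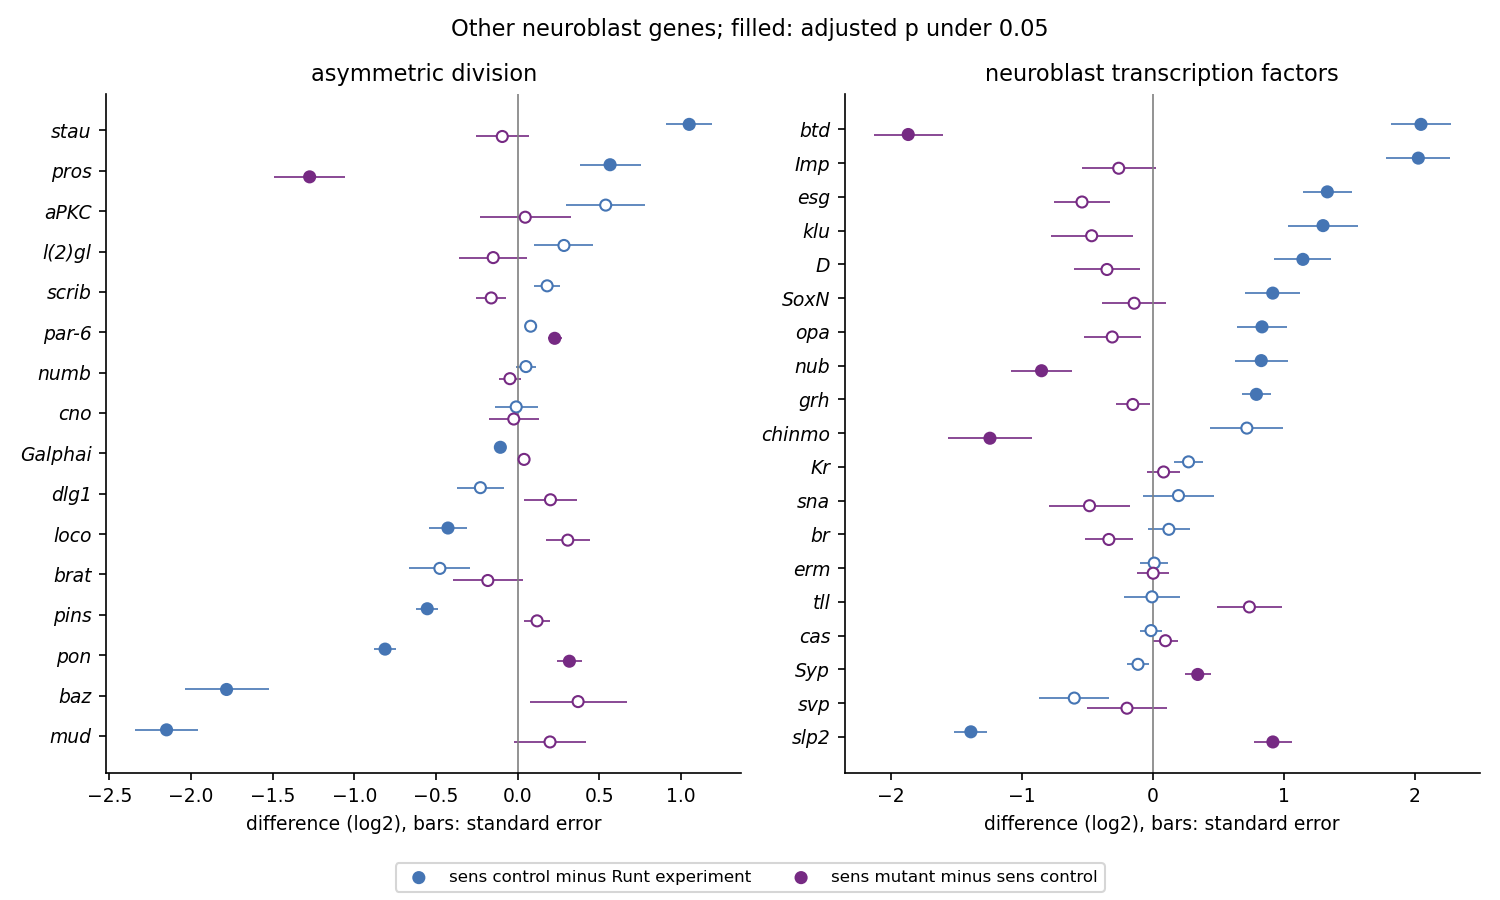
Difference (log2, horizontal axis) of each tested gene of the asymmetric division list (left) and the transcription factor list (right), for sens control minus Runt experiment and sens mutant minus sens control, with standard errors and filled points at an adjusted p under 0.05. btd, pros and nub have filled points on opposite sides of 0, with controls high, and so do slp2 and pon, with controls low. Imp, stau, baz and mud have a filled point in the comparison with the Runt experiment alone.

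Markers of brain neurons gave little signal. Of 20 genes with a probe set in that list, 12 lay below a log2 value of 3 on all arrays, among them the transmitter genes ChAT, Gad1, VGlut and ple. The filter cuts within the floor, so the 11 genes that passed it include some of these 12, such as ChAT and ple. Of the 11, 2 fell in mutants relative to controls and none rose, where 5.3% of all probe sets fell and 11.6% rose. Ddc, the dopa decarboxylase gene, which is also used in cuticle, read 9.76, 9.52 and 9.23 on control arrays, 6.93, 6.95 and 6.40 on mutant arrays, and 4.12 to 4.65 across the Runt experiment. That is the order seen for insc, with both sens groups above the Runt arrays and controls highest. amon, a prohormone convertase gene, fell by 1.34 (difference -1.34, SE 0.311, adjusted p = 0.0162) and, like ase, was lowest in mutants, while without control replicate 1 its adjusted p was 0.0554. Relative to the Runt experiment 3 of the 11 genes, Ddc, ems and scro, were higher in controls and 1, fru, was lower, of which ems, scro and fru are named after their values were seen. Of all probe sets 16.5% were higher and 26.7% lower in controls. The list mean was 4.97 to 5.15 in controls and at most 4.72 on any other array, but this gap rested on Ddc: without it, a step chosen after seeing the data, the controls were at 4.50, 4.51 and 4.75 and overlapped the other arrays, of which Runt replicate 3 was highest at 4.71.

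Other tissues were read through marker lists measured on the same arrays, and their part in the values of the 5 genes was not tested. In the antenna and leg disc list, control arrays had a mean of 8.35 to 8.69, mutant arrays one of 7.74 to 7.99, and arrays of the Runt experiment one of 7.43 to 7.92. In that list 3 of 8 genes fell in mutants and none rose, where 5.3% of all probe sets fell and 11.6% rose. Control arrays read 8.44, 8.84 and 8.51 for Dll, mutant arrays 6.78, 6.64 and 6.83, and Runt-experiment arrays 4.61 to 5.97, again the order of insc. al followed it, at 6.88 to 7.22, 5.90 to 6.20 and 5.42 to 5.68. salm fell in mutants too, by 1.54 (difference -1.54, SE 0.314, adjusted p = 0.00895), but did not follow Dll and al in the Runt experiment. Its means were 10.1 and 9.88 in the Runt groups and 9.68 in controls, and controls differed from the Runt experiment by -0.31 (adjusted p = 0.41). Relative to the Runt experiment 4 of the 8 genes were higher in controls and 1 was lower, dan, by 0.65 (difference -0.65, adjusted p = 0.000164), which is named after its values were seen. Of all probe sets 16.5% were higher and 26.7% lower in controls.

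Sensory precursor and photoreceptor genes included some that, like ase, were lowest in mutants. In the sensory organ precursor list 3 of 10 fell in mutants and 1 rose, where 5.3% of all probe sets fell and 11.6% rose. nvy, which encodes a corepressor, stood at 9.21, 9.25 and 9.20 in controls, 8.52 to 9.09 in the Runt experiment and 7.88, 7.16 and 8.25 in mutants, a difference of -1.45 from controls (SE 0.236, adjusted p = 0.00301). phyl fell by 0.50 (difference -0.50, adjusted p = 0.00285), to the level of the Runt G163R arrays, and sens itself rose by 1.29 (adjusted p = 0.00112). Whether the alleles remove transcript is not in the labels, so that probe set does not check the genotype. In the photoreceptor list 5 of 12 fell and none rose, against the same 5.3% and 11.6% of all probe sets. boss, which encodes the R8 ligand of the Sevenless receptor, stood at 6.48, 6.51 and 6.38 in controls and at 2.27, 2.39 and 2.59 in mutants, a difference of -4.04 (SE 0.281, adjusted p = 2.42e-05). futsch, a microtubule-associated protein gene, fell by 1.08 (difference -1.08, SE 0.195, adjusted p = 0.00509). onecut fell by 1.21 (difference -1.21, adjusted p = 0.00939) and lay lowest in mutants, at 6.13 to 7.05 against 7.58 to 8.38 in all other arrays.

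As lists, the glial, blood and fat markers differed from these patterns. In the glial list 2 of 11 rose in mutants and 2 fell, where 11.6% of all probe sets rose and 5.3% fell. The mean of the list was 7.06 to 7.25 in controls and 7.11 to 7.29 in mutants. wrapper, a gene of midline and cortex glia, rose in mutants by 1.29 (SE 0.131, adjusted p = 0.000223). moody, of the blood-brain barrier glia, rose by 0.41 (SE 0.101, adjusted p = 0.0206), a call lost without mutant replicate 1 or 2 or control replicate 1 (adjusted p values of 0.0667, 0.068 and 0.0644). The astrocyte gene alrm went the other way and stood at 4.15, 3.87 and 3.02 in controls and at 2.45 to 2.92 in all other arrays, which is close to the pattern of wor, with control replicate 3 the lowest control in both. Mdr65 fell as well, by 0.55 (difference -0.55, SE 0.156, limma adjusted p = 0.0391). Its mean was 6.69 in controls, 6.14 in mutants and 6.22 and 5.95 in the Runt groups. The haemocyte list lay at 7.17 to 8.23 in the Runt experiment and 3.99 to 4.98 in both sens groups. Relative to the Runt experiment 6 of 7 genes were lower in controls and 6 of 7 in mutants. Of all probe sets 26.7% and 16.9% were lower in those comparisons. No haemocyte gene was called between mutants and controls, where 16.9% of all probe sets were. The fat body list varied between replicates, at 10.8, 6.84 and 3.60 in control replicates 1 to 3 and 4.77, 9.19 and 3.41 in mutant replicates 1 to 3. None of its 4 genes was called in that comparison either. On the same arrays wor stood at 4.59, 5.10 and 3.05 in control replicates 1 to 3 and at 2.72, 2.67 and 2.73 in mutant replicates 1 to 3. Its relation to the fat body list was not tested. In the cell cycle list 5 of 6 genes were lower than in the Runt experiment in controls, and 5 of 6 in mutants. Of all probe sets 26.7% and 16.9% were lower there. In mutants relative to controls 1 of 6 rose and none fell, where 11.6% of all probe sets rose and 5.3% fell.

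**Figure D4:**
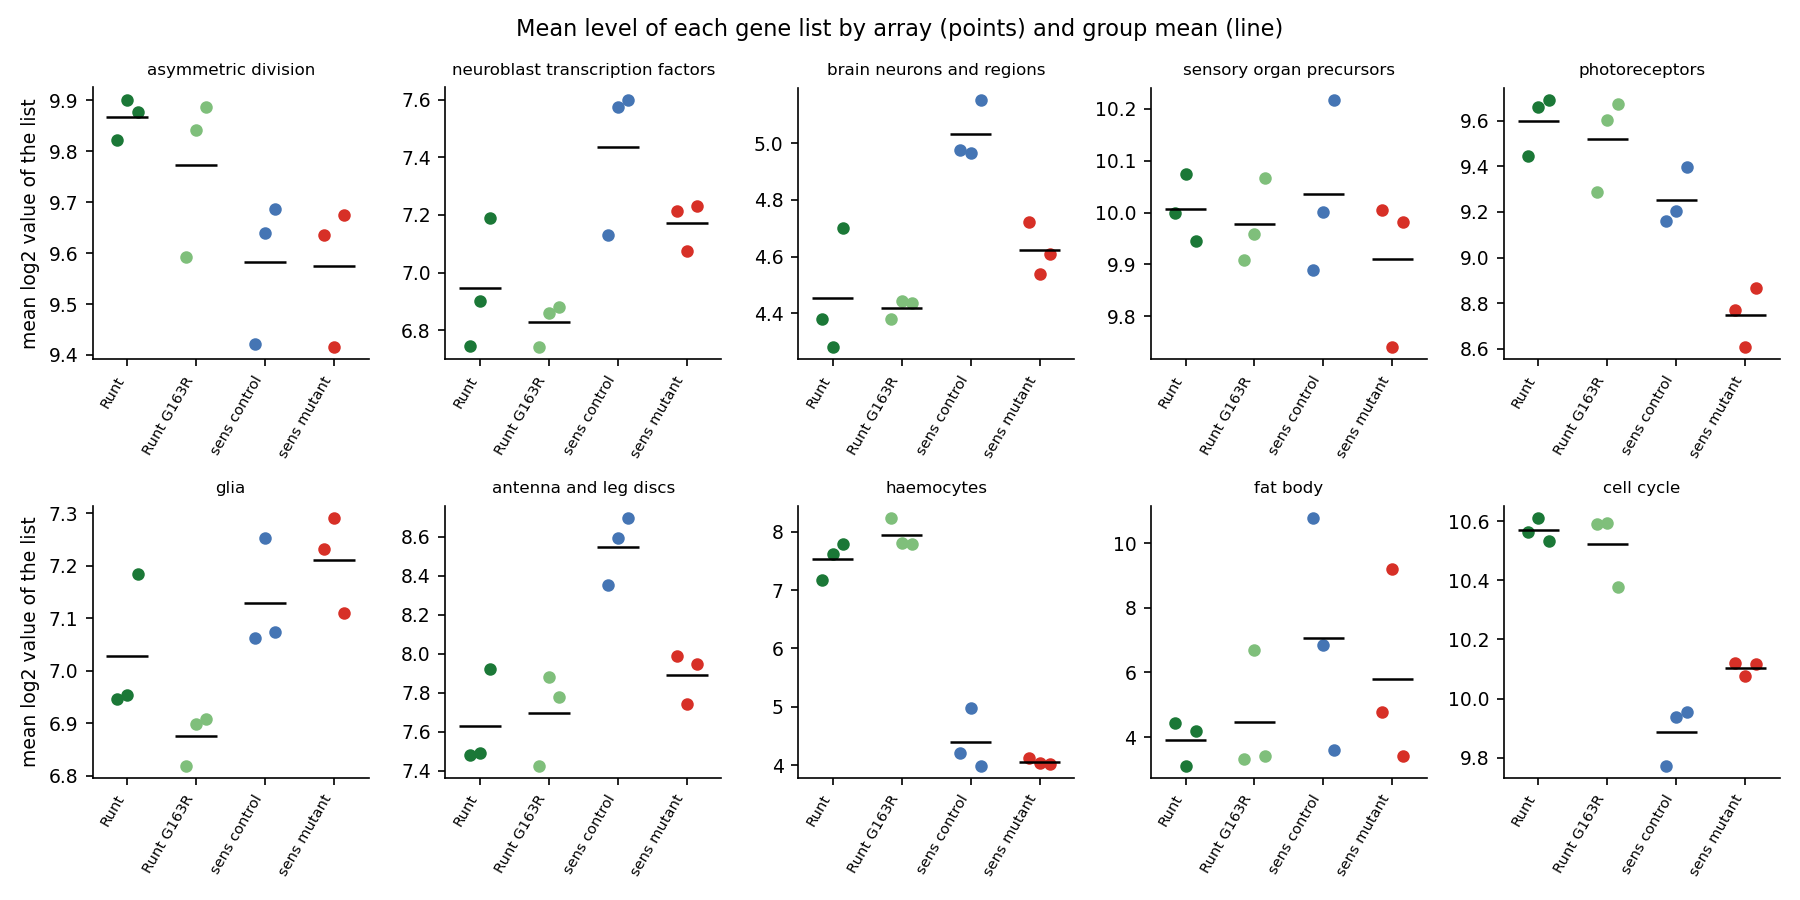
Mean log2 value (vertical axis, a separate range for each list) of the genes of each list that passed the filter, on 12 arrays with the group mean as a line. Controls lie above all other arrays for the antenna list and, through Ddc, the brain neuron list, and below all others for the cell cycle list. Mutants lie below all others for the photoreceptor list, and the haemocyte and cell cycle lists separate the experiments.

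Other genes were ranked by Pearson correlation over the 12 arrays with the mean of the 5 centred profiles. That mean was 0.43 to 0.92 on control arrays, -0.42 to -0.39 on mutant arrays and -0.30 to -0.04 across the Runt experiment. It does not stand for each of the 5, since ase and dpn were not raised in controls over the Runt experiment in this way. The 12 arrays form 4 groups, so a high correlation chiefly reflects a raised control group. The top 10 were CG5707, Ptx1, IA-2, CG46301, CG11317, CG10804, Dtg, CG8854, CG7408 and Cipc, with correlations of 0.930 to 0.955. Of these, CG5707, Ptx1, CG11317, CG10804 and CG8854, lay in or near the floor in every group. IA-2 stood at a mean of 6.67 in controls and 2.88 to 2.92 in the other groups, and CG7408 at 7.08 in controls, 2.92 in mutants and 4.12 and 4.21 in the Runt groups. Cipc stood at 5.41 in controls and 2.76 to 3.00 elsewhere. Dtg was the only bright gene of the 10, at 9.92 in controls, 8.88 in mutants and 9.07 and 9.33 in the Runt groups.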

How the data were processed

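The deposited values are 1 table of log2 expression for 12 arrays; the scale was judged from their range of 1.63 to 15.4. MAS5, GCRMA and affy are named, without version, per the submitters' processing notes, and which of them made these values is not given in the sources used here. Symbols were updated through gene identifiers to the RefSeq annotation of Release 6, used for names and chromosome arms only.

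Control probe sets (183) were left out and the filter asked for a value over the 40th percentile in at least 3 of the arrays. limma 3.58.1 (R 4.3.3) estimated 4 group means from the 12 arrays together, with eBayes and an intensity trend. The Runt experiment is the mean of its 2 group means. Tests were two-sided, adjusted by Benjamini-Hochberg over all 11470 probe sets, with calls under 0.05. Genes with several probe sets were read from the brightest. The number of arrays limits the precision. The members and the 10 lists (139 entries, 118 with a probe set) were chosen with earlier results of these data known. Named list genes are up to 3 per list with the smallest p in the sens comparison and up to 2 in the Runt comparison, besides the 10 most correlated genes; others are said to be named later. In simulated data the fit recovered 84% or more of changes of 1 log2 unit in each of the 4 comparisons of 11470 probe sets. Those data held 200 changed probe sets per comparison, and 44% to 62% of changes of 0.5 log2 unit were recovered. Recovery on the deposited arrays, with their floor and larger numbers of calls between the experiments, was not tested. The alternatives covered the filter, the normalization, the probe set rule, array weights, the replicate block, the arrays fitted and the omission of each array.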

Additional observations from a re-analysis of the deposited data

How the results depend on the processing

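Of the 35 neuroblast list genes, 4 fell and 4 rose in sens mutants relative to controls. The number that fell was 2 with no filter, with the replicate block and with only the 6 arrays of the experiment, and the number that rose was 2 after a second quantile normalization and with only those 6 arrays. Leaving out 1 array at a time gave 2 to 5 that fell, 2 to 4 that rose and, relative to the Runt experiment, 4 to 8 lower in mutants. With array weights 2 of the 35 were higher in Runt than in Runt G163R, against 0, and the differences of ase and CycE there turned to -0.0568 and -0.0314. Leaving out 1 array gave -0.12 to 0.10 for ase, -0.0396 to 0.138 for CycE and -0.181 to 0.0288 for insc, and in the sens comparison -2.82 to 0.57 for Fbp2, -3.68 to 0.15 for Lsp2 and -2.70 to 0.25 for apolpp. The cause was not tested. The lowest control lay above the highest other array by 0.245 in the mean of the brain neuron list, and by -0.21 without Ddc, an omission chosen after seeing the data. In their deviations from the group means, same-numbered arrays of an experiment correlated at -0.42 to 0.256 and other-numbered ones at -0.383 to 0.394. With so few arrays per group, this cannot settle whether the numbers pair the samples. Over all probe sets, calls between Runt and Runt G163R numbered 5, against 466 with array weights, 119 without Runt replicate 3, 12 without Runt G163R replicate 3, 8 without Runt replicate 1, 1 with the block or with 6 arrays and 0 with a 60th percentile filter. In the sens comparison they numbered 1940, against 1220 without sens mutant replicate 1, and the share that rose was 68.7%, against 50.1% after a second quantile normalization. The floor of the arrays limits what can be said of wor and of most brain neuron markers.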
